A study of Homo sapiens with 47 samples.

Results

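The mRNAs of 9 nucleoporins were followed across cell lines in which another nucleoporin gene, NUP58, had been edited. They were chosen by name and position in the nuclear pore complex (NPC): NUP214, NUP88, RANBP2 and GLE1 at the cytoplasmic face, NUP98 and its partner RAE1, and NUP153, TPR and NUP50 at the nuclear basket. Each of the 9 symbols stood on 1 row of the expression table, out of 57507 genes. All 9 passed the filter on low values, a mean of at least 1 FPKM (fragments mapped to the gene, per unit of transcript length and of library total), in every comparison.

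Bulk RNA sequencing covered 47 libraries of 2 established human lines. HAP1, a near-haploid line from a chronic myeloid leukemia, gave 32 libraries, 4 each of untransfected wild-type cells (WT), of cells that had received the Cas9 vector with no guide RNA (EV) and of the NUP58 mutant lines C1 to C6. HCT116, a near-diploid colorectal carcinoma line, gave 15 libraries, 4 of 1 NUP58 mutant clone (Clone) and 11 unedited controls. The controls were 2 WT libraries, 3 of EV1, 4 of EV2 and 2 whose title and genotype give different names, both of them unedited. Each mutant line grew from 1 cell, isolated by sorting for HAP1 and by dilution for HCT116. The 6 HAP1 clones were picked as the smallest viable ones, and RNA was taken at passage 1. A property of 1 clone and an effect of its NUP58 allele cannot be told apart within that clone. The labels call the libraries of a line experimental replicates, so p-values here measure the spread between those libraries.

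The edited gene checked the labels. NUP58 stood at 34.3, 34.7, 50.4 and 45.8 FPKM in the 4 HAP1 WT libraries and at 7.98 to 28.0 FPKM in the 24 clone libraries, with no overlap. In HCT116 it stood at 25.3, 23.3, 44.7 and 24.3 FPKM in the libraries labelled Clone rep1 to rep4. The library labelled Clone rep3 thus lay within the range of the controls, while the library labelled EV2 rep3 (23.9 FPKM) lay below the other 10 controls (28.7 to 50.3 FPKM). The tests of the HCT116 clone are therefore given with and without these 2 libraries. Other HCT116 values include them unless stated. Library depth relative to the first WT library was 0.748 to 1.16 in HAP1 and 0.761 to 0.945 in HCT116. The summed FPKM of 8 epithelial markers was 21.6 to 64.7 in HAP1 and 1160 to 2020 in HCT116, where CDX1, VIL1 and LGALS4 stayed below 0.5 FPKM in every library. HAP1 is of blood origin, yet of 7 blood cell markers PTPRC, SPI1, GATA1, MPO and ITGAM stayed below 0.5 FPKM in all 32 HAP1 libraries. The only marker of this list high enough to be tested, TAL1, was higher in unedited HAP1 than in HCT116 by 2.60 on the log2 scale (adjusted p = 2.36e-05). It was lower in EV than in WT (-3.07, adjusted p = 4.31e-05), and the summed level of the 7 was 1.17 to 1.94 FPKM in EV and 12.1 to 23.9 FPKM in the other HAP1 lines.

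The NPC is a ring-shaped channel through the nuclear envelope. On its cytoplasmic face, filaments built around NUP214, NUP88 and RANBP2 receive cargo leaving the nucleus, and GLE1 stimulates the RNA helicase DDX19B, which strips export factors from mRNA. NUP98 lines the channel with phenylalanine-glycine (FG) repeats and binds RAE1, an mRNA export factor. On the nuclear side, TPR forms the filaments of the basket, NUP153 anchors the basket to the pore, and NUP50 helps importins release their cargo. NUP58, the edited gene, belongs to the central channel subcomplex with NUP54 and NUP62.

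The 9 genes lie on 8 chromosomes of GRCh38 (GENCODE release 44). TPR lies at chr1:186311652-186375693 (minus strand), RANBP2 at chr2:108719482-108785810 (plus), NUP153 at chr6:17615035-17706925 (minus) and NUP98 at chr11:3671083-3797792 (minus). NUP88 lies at chr17:5359668-5420164 (minus), RAE1 at chr20:57351223-57379211 (plus) and NUP50 at chr22:45163925-45188017 (plus). GLE1 (chr9:128504655-128543874, plus) and NUP214 (chr9:131125573-131234663, plus) share the long arm of chromosome 9. Exons of NUP88 overlap those of RABEP1 (mean of 35.9 FPKM over the HAP1 libraries) and RPAIN (58.3 FPKM) on the other strand, and exons of NUP98 overlap those of PGAP2 (25.6 FPKM) on the other strand. Whether the counting used strand is not given in the sources used here, so the levels of NUP88 and NUP98 are uncertain to that extent. RANBP2 has 7 near-identical relatives, the RGPD genes, which could share its reads. The highest of them were RGPD4 and RGPD8, with means of 1.16 and 1.11 FPKM over the HAP1 libraries, against 19.8 FPKM for RANBP2 in WT.

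Promoter sequences were available for 8 of the 9 genes in the RefSeq table (GRCh38.p14). GLE1 was not matched. Those of NUP153 and RANBP2 are printed because these mRNAs had the strongest Pearson correlations with ASNS within the HAP1 lines, both negative, as described further on. By Spearman's rank correlation NUP50 came before RANBP2. ASNS encodes asparagine synthetase and is a classical target of ATF4, the transcription factor of the amino acid response, which acts through C/EBP-ATF response elements of the form TGATGNAA. Both sequences are the 250 bases before the start, 5′ to 3′ on the strand of the gene, at chr6:17706926-17707175 (minus) and chr2:108719232-108719481 (plus), and capitals mark a match to TGATGNAA.
NUP153: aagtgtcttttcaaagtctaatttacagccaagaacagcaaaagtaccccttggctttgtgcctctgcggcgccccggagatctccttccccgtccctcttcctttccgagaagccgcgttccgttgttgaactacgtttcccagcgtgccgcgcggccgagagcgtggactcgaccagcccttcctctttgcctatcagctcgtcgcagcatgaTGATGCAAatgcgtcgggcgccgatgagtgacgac
RANBP2: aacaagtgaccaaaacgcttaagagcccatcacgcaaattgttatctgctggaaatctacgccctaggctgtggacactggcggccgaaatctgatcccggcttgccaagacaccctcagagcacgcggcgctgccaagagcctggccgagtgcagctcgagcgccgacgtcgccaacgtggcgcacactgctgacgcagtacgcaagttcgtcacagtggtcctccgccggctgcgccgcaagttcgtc
The NUP153 sequence holds 1 match, which begins 35 bases before the start, and the RANBP2 sequence holds none on either strand. Of 35116 RefSeq promoters of this length, 3.14% hold a match to TGATGNAA on either strand, and 1 of the 11 promoters of the 8 genes does, that of NUP153. NUP153 and RANBP2 were both lower where ASNS was higher, and a role of ATF4 was not tested. CCAAT, the box bound by NF-Y, was found in 6 of the 11 promoters (of NUP214, NUP88, NUP98 and TPR), against 32% of all promoters. The promoters of NUP98 in this set overlap each other. The ETS motif CCGGAAGT was found in none of the 11 and in 3.42% of all promoters. The CRE motif TGACGTCA was found in 1 of the 11, of NUP214, and in 1.65% of all promoters. The 11 promoters of these 8 genes had a median GC content of 65.2%, against 58.0% over all promoters.

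In wild-type HAP1 cells the 9 mRNAs formed a higher and a lower tier. FPKM is scaled by transcript length, so levels can be set side by side. RAE1 was at 57.3 ± 7.27 FPKM (SD, n = 4, as for all values of a HAP1 line), NUP88 at 56.3 ± 10.7, NUP50 at 42.2 ± 7.52, NUP153 at 41.1 ± 6.20 and NUP98 at 38.3 ± 6.07. GLE1 (25.3 ± 0.947), TPR (24 ± 3.94), RANBP2 (19.8 ± 5.36) and NUP214 (18.3 ± 4.59) were lower. Libraries of neighbours in this order overlapped, except between NUP98 and GLE1. Neither tier followed position in the pore, since each held mRNAs of the cytoplasmic face and of the basket. In the HCT116 controls NUP88 (54.6 ± 12.6 FPKM, n = 11) and RAE1 (46.6 ± 7.82) again came first, and NUP214 (10.2 ± 1.99) came last without overlap with GLE1 (20.1 ± 3.51).

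**Figure D1:**
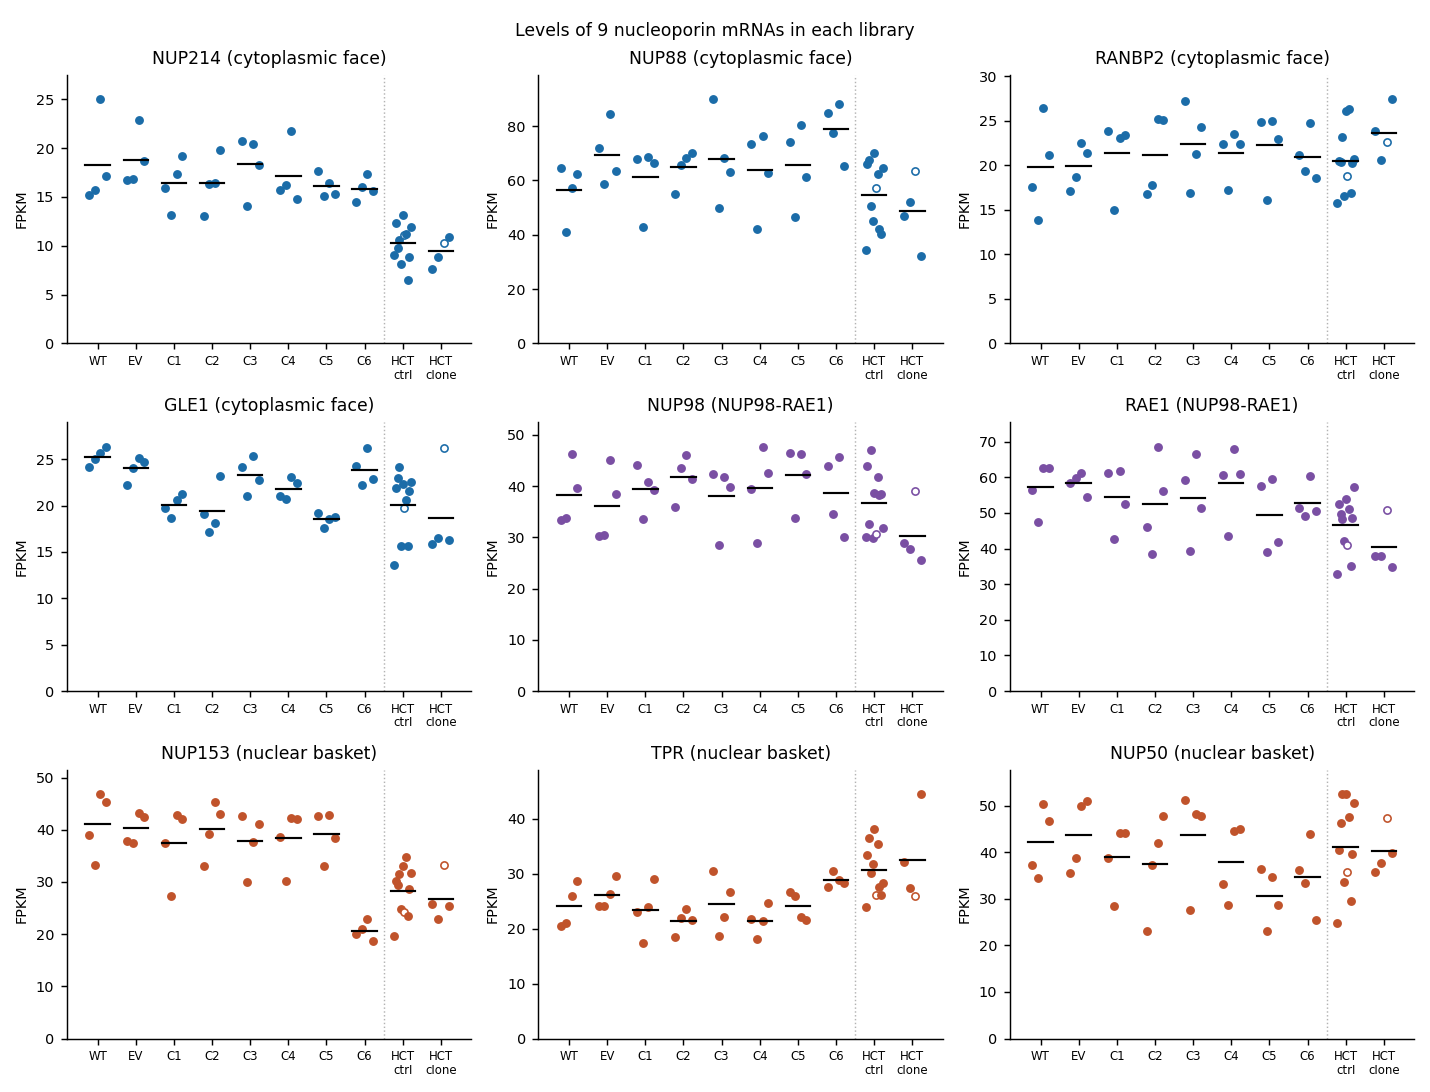
Level of each mRNA in every library (FPKM, linear axes from 0) by cell line. Points are libraries, bars are means, open points are the HCT116 libraries labelled Clone rep3 and EV2 rep3, and the dotted line separates HAP1 from HCT116, whose 11 unedited controls are marked ctrl. NUP153 in C6 (18.7 to 23.0 FPKM) lies below all other HAP1 libraries, and GLE1 in C1, C2, C4 and C5 lies below WT.

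The first comparison asked whether the 9 mRNAs changed when NUP58 was edited, with the 6 HAP1 clones averaged and set against WT. Of the 9 mRNAs 1, GLE1, was called at an adjusted p under 0.05 (limma on log2(FPKM + 1), Benjamini-Hochberg over all tested genes), while 6.60% of all 13180 tested genes were called. GLE1 was lower in the clones by 0.25 on the log2 scale (SE 0.064, adjusted p = 0.0131). By value, 3 of the 9 mRNAs were higher and 6 lower, with a median log2 fold change of -0.11, beside -0.02 over all tested genes. Changes were small: apart from GLE1, estimates ran from -0.23 (NUP153, adjusted p = 0.217) to +0.24 (NUP88, adjusted p = 0.398). With the replicate number as a block, 2 of the 9 were called by limma, against 12.6% of all genes. These were GLE1 (adjusted p = 0.00314) and NUP153 (adjusted p = 0.0471). Replicate numbers paired the mean of the clones with WT, but not C5 or C6 taken singly. The NUP153 estimate rested on C6, and without that clone it was -0.09 (adjusted p = 0.754). In the fit without the block, the GLE1 call was lost against EV in place of WT (log2 fold change -0.18, adjusted p = 0.0747). It was also lost without C5 (0.0653), without WT rep3 (0.0508) and without WT rep4 (0.0710). In bulk RNA, fewer cells of a kind and less RNA per cell cannot be told apart. Of 4 tested epithelial markers KRT8 (-1.29) and KRT18 (-0.67) fell in the same comparison, while CDX2 (+0.46, adjusted p = 0.0573) and EPCAM (+0.10, adjusted p = 0.753) were not called. In C5, EPCAM rose by 2.97 (adjusted p = 4.65e-05) and KRT8 fell by 1.60 (adjusted p = 0.0018). The summed level of all 8 markers was 48.0 to 56.8 FPKM in WT, 47 to 49.6 in C5 and 21.6 to 28.1 in C6. Their part in these results was not tested.

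GLE1, the activator of the mRNA export helicase at the cytoplasmic face, had the tightest replicates of the 9, with a median SD within lines of 0.0762 on the log2 scale. It stood at 24.1, 25.0, 25.6 and 26.4 FPKM in WT and at 22.3, 24, 25.1 and 24.7 FPKM in EV. C5 gave 19.2, 17.5, 18.6 and 18.8 FPKM, or 73.3% of the WT mean. C2 gave 19.1, 17.2, 18.1 and 23.2 FPKM (76.7% of WT), and C1 gave 19.7, 18.7, 20.6 and 21.3 FPKM (79.4%). C4 gave 21.0, 20.7, 23.1 and 22.4 FPKM (86.2% of WT). All 16 libraries of these 4 clones lay below every WT library. C3 (21.0 to 25.4 FPKM) and C6 (22.3 to 26.2 FPKM) overlapped WT. In all, 20 of the 24 clone libraries were below the lowest WT library. The share of all tested genes that separate in this way is not given here, for GLE1 or for the members below.

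Tested clone by clone in fits of 8 libraries, GLE1 was called in C5, where it fell by 0.43 on the log2 scale (SE 0.094, adjusted p = 0.0233 by limma). It was the only member called in C5, where 7.55% of all genes were called. In C1 the log2 fold change of GLE1 was -0.32 (adjusted p = 0.230), in C2 -0.37 (0.233), in C4 -0.21 (0.815), in C3 -0.11 and in C6 -0.08. The exact permutation test gave two-sided p = 0.0286 in C1, C2, C4 and C5, the smallest value that 4 libraries against 4 allow. No member was called in C1 (0.479% of all genes called), C2 (0.732%), C3 (0.0911%) or C4 (0.160%), and the unmoderated test called none there either. At an unadjusted p under 0.05 GLE1 alone passed in C1 and in C2, and no member passed in C3 or C4. Fitting all 32 HAP1 libraries together, which shares 1 estimate of the spread, called GLE1 in C1 (adjusted p = 0.0283) and C2 (0.00764) as well as C5, and 6.12% of all tests of a gene in a clone were called in that fit.

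Genes next to GLE1 tended to be lower too. In C5 the 70 other tested genes that start within 2 Mb of GLE1 had a median log2 fold change of -0.25, 59 of them were lower than in WT and 8 were called lower. Over the genes within 10 Mb the median in C5 was -0.12. In the mean of the clones the 72 genes within 2 Mb had a median of -0.16 and 57 were lower, beside a median of -0.02 over all genes. Their medians were -0.14 in C1, -0.18 in C2, -0.18 in C4, -0.06 in C3, -0.08 in C6 and +0.03 in EV. The part of this stretch of chromosome 9 in the GLE1 result was not tested. The GLE1 call in C5 was lost when any 1 of 6 libraries was left out (C5 rep1, rep3 or rep4, or WT rep1, rep3 or rep4), with adjusted p up to 0.0791.

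NUP88, which ties the NUP214 complex to the pore, was above WT by its mean in all 6 clones, and was not called in any. The WT libraries gave 64.6, 41.0, 57.2 and 62.4 FPKM, and 16 of the 24 clone libraries lay above the highest of them. C6 was highest with 84.8, 77.5, 88.1 and 65.2 FPKM, all above WT, a log2 fold change of +0.49 (SE 0.16, adjusted p = 0.0719, exact permutation p = 0.0286). The 72 other tested genes within 2 Mb of NUP88 had a median of -0.06 in C6. EV, with 71.8, 58.6, 84.3 and 63.5 FPKM, was also above WT by 0.31 on the log2 scale (adjusted p = 1). No clone mean of NUP88 other than that of C6 was above the EV mean of 69.5 FPKM.

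RANBP2, the large filament protein that carries a SUMO ligase and binds Ran, ranged from 15 to 27.3 FPKM in the clones and from 13.9 to 26.5 FPKM in WT. Its estimates lay between +0.11 and +0.19 in the 6 clones, and every line overlapped its neighbours. NUP214, the FG nucleoporin that anchors DDX19B, ranged from 13 to 21.8 FPKM in the clones and from 15.2 to 25.0 FPKM in WT. It was lower by value in 5 of 6 clones, by 0.17 at most on the log2 scale, and passed no test. In the mean of the clones NUP214 was at -0.11. The 33 other tested genes within 2 Mb of it also had a median of -0.11, with 27 lower. The part of these neighbours in the NUP214 values was not tested. In EV against WT no member was called (limma, 0.0380% of all genes called), and none had an unadjusted p under 0.05.

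NUP98 and RAE1 did not pass the test in any HAP1 line. NUP98 stood at 33.3, 33.8, 46.3 and 39.7 FPKM in WT and at 28.5 to 47.7 FPKM in the 24 clone libraries, with a log2 fold change of +0.06 in their mean (SE 0.12, adjusted p = 0.856). RAE1 stood at 56.6, 47.3, 62.8 and 62.7 FPKM in WT and at 38.6 to 68.7 FPKM in the clones, with -0.11 (SE 0.13, adjusted p = 0.727). The largest estimate of the pair was RAE1 in C5, -0.22 (adjusted p = 0.451). The libraries of all 8 HAP1 lines overlapped for both genes.

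NUP153 set C6 apart from the rest of HAP1. The 4 C6 libraries gave 20.1, 21.0, 23.0 and 18.7 FPKM, while WT gave 39.1, 33.3, 46.8 and 45.3 FPKM. The other 28 HAP1 libraries ran from 27.4 to 46.8 FPKM, so that C6 did not overlap any other line. The C6 mean was 50.3% of WT, a fall by 0.95 on the log2 scale (SE 0.13, adjusted p = 0.00155 by limma, exact permutation p = 0.0286). NUP153 was the only member called in C6, where 11.7% of all genes were called. The call held in 17 of 17 alternatives with the adjusted p threshold (log2 fold change from -1.04 to -0.88, adjusted p from 1.56e-05 to 0.0316). The estimate as reported is a fold just under 2, so a rule that asks for a fold over 2 did not call it. Without WT rep2 the estimate was -1.04. In the other 5 clones the estimates of NUP153 lay between -0.14 and -0.03.

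NUP153 moved with its neighbours on the short arm of chromosome 6. The 9 other tested genes that start within 2 Mb of it had a median log2 fold change of -0.69 in C6, with 8 lower and 6 called lower. Within 10 Mb there were 69 genes with a median of -0.67, of which 63 were lower and 36 called lower. The median over all genes in C6 was +0.02. In bins of 10 Mb the medians were -0.61, -0.68, -0.67 and -0.76 from the telomere to 20 Mb on the centromeric side of NUP153, and +0.11 from 20 to 30 Mb on that side. In the mean of the 6 clones the genes within 2 Mb had a median of -0.09. NUP153 lay below the median of its neighbours, and that gap was not tested.

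**Figure D2:**
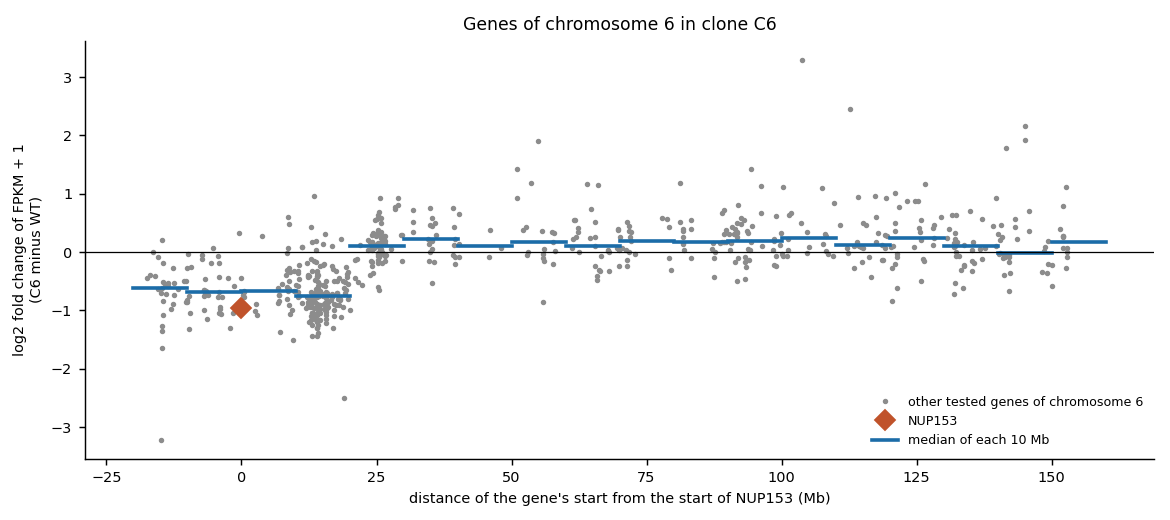
Log2 fold change of FPKM + 1 in C6 against WT (vertical axis) of the tested genes of chromosome 6 by the distance of their start from that of NUP153 (horizontal axis, Mb). Grey points are genes, the diamond is NUP153 (-0.95) and blue lines are medians of each 10 Mb, which lie between -0.76 and -0.61 up to 20 Mb beyond NUP153 and at +0.11 in the next 10 Mb.

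The other 2 basket mRNAs did not pass the test. NUP50 stood at 37.3, 34.5, 50.2 and 46.8 FPKM in WT and at 36.4, 23.1, 34.7 and 28.6 FPKM in C5, where it was lowest (72.7% of WT). Its log2 fold change in C5 was -0.45 (SE 0.17, adjusted p = 0.149), and the groups overlapped. Of 30 other tested genes within 2 Mb of NUP50, 21 were lower in C5 by value, with a median of -0.18. Within 10 Mb 142 of 170 were lower, with a median of -0.27. In C6 NUP50 was at -0.28, while its neighbours within 2 Mb had a median of -0.02. TPR stood at 20.5, 21.0, 26.0 and 28.6 FPKM in WT and at 27.5, 30.5, 28.9 and 28.4 FPKM in C6, where it was highest (+0.27, SE 0.13, adjusted p = 0.213). The 10 genes within 2 Mb of TPR had a median of +0.20 in C6, and 1 of them was lower. Within 10 Mb of TPR 15 of 48 genes were lower, also with a median of +0.20.

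**Figure D3:**
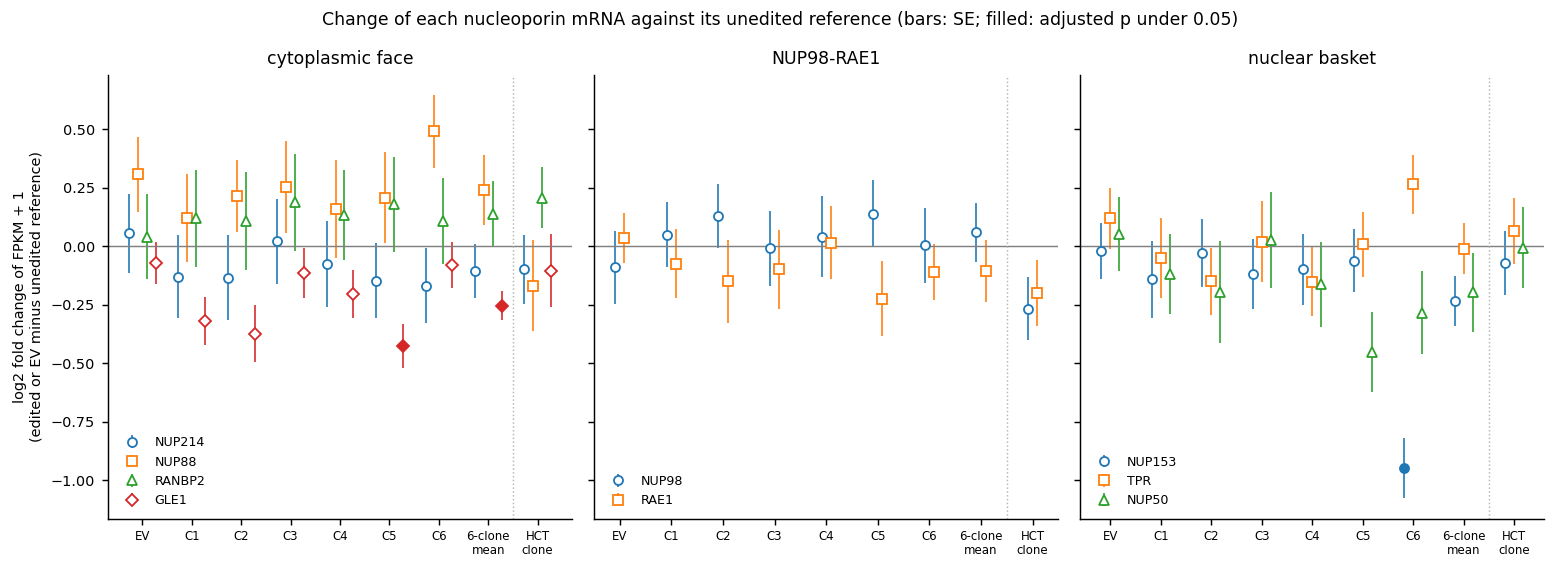
Log2 fold change of FPKM + 1 of each mRNA (points) with its SE (bars) in EV, in each HAP1 clone and in the mean of the 6 clones against WT, and in the HCT116 Clone against 11 controls. Filled points have an adjusted p under 0.05: GLE1 in C5 (-0.43) and in the mean of the clones (-0.25), and NUP153 in C6 (-0.95).

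Whether the 6 clones differed from each other was tested with 1 F test per gene. NUP153 (adjusted p = 0.00039 by limma) and GLE1 (adjusted p = 0.0342) differed among clones, 2 of the 9 members, against 13.9% of all genes. NUP153 was no longer called without C6 (adjusted p = 1). GLE1 was not called without C6 (adjusted p = 0.231) or with libraries scaled by median ratios (0.129). Leaving out 1 library also ended the GLE1 call for C2 rep3, for C3 rep1, rep3 or rep4, for any library of C5 and for C6 rep1 or rep3, with adjusted p of 0.0529 to 0.0755. TPR came next with an adjusted p of 0.267, and RANBP2 was the least variable across clones, with means of 21.0 to 22.4 FPKM.

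Other parts of the pore were read in the mean of the 6 clones for comparison, where 6.60% of all 13180 tested genes were called. The lists are short, so 1 call in a list is not read as a result about that part. In the outer ring (Y complex) none of 9 genes was called at an adjusted p under 0.05, with 2 at an unadjusted p under 0.05 and a median log2 fold change of +0.05. Of 10 inner ring and membrane genes 1 was called, the membrane nucleoporin NUP210 (-0.54, SE 0.14, adjusted p = 0.0145). Of 3 central channel genes NUP58 itself was called (-1.48, adjusted p = 9.59e-09), while the list's median was -0.09. Of 8 tested partners of the cytoplasmic face, such as DDX19B and NXF1, none was called and 1 had an unadjusted p under 0.05 (median +0.03). Of 8 basket partners 1 was called, PCID2 (-0.36, SE 0.082, adjusted p = 0.00681), an mRNA export factor of the TREX-2 complex, which docks at the basket. PCID2 lay at 24.5 to 27.5 FPKM in C5 and at 25.2 to 32.4 FPKM in C6, against 40.7 to 56.3 FPKM in WT. Of 7 RGPD relatives of RANBP2 the 2 that could be tested were not called.

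In HCT116 the same question was asked with 1 clone. None of the 9 members was called against the 11 controls (limma, 0% of 12960 genes called), none had an unadjusted p under 0.05, and the unmoderated test called none. NUP98 had the largest estimate, -0.27 on the log2 scale (SE 0.14, adjusted p = 0.508), followed by RANBP2 (+0.21, adjusted p = 0.586) and RAE1 (-0.20, adjusted p = 0.631). The median of the 9 was -0.10, and over all genes it was 0.00. GLE1 in the libraries labelled Clone rep1 to rep4 read 15.9, 16.5, 26.2 and 16.2 FPKM, so that the library labelled Clone rep3 stood far above the other 3 for this gene as it did for NUP58.

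Without the libraries labelled Clone rep3 and EV2 rep3, 7.62% of all genes were called in HCT116, and none of the 9 members. NUP98 had the largest estimate of the 9, -0.41 on the log2 scale (SE 0.14, adjusted p = 0.0736). Its 3 remaining clone libraries gave 29.0, 27.8 and 25.5 FPKM, all below the 10 controls, which ran from 29.8 over a median of 38.4 to 47.1 FPKM. How many of all tested genes separate in this way is not given here. The exact permutation test over 286 arrangements gave two-sided p = 0.00699 for NUP98. RAE1, its binding partner, gave 37.8, 37.9 and 34.8 FPKM against 33.0 to 57.3 FPKM in the controls, which overlap (-0.33, adjusted p = 0.18, exact permutation p = 0.0629). GLE1 gave 15.9, 16.5 and 16.2 FPKM against 13.6 to 24.2 FPKM (-0.27, adjusted p = 0.291). The median of the 9 was then -0.20. ASNS, read as a sign of the state of the cultures, was at 56.3 to 75.3 FPKM in these 3 clone libraries. In the 10 controls it was at 66.8 to 349.5 FPKM, and its part in these values was not tested.

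The clone effect in HAP1 minus that in HCT116 was tested as an interaction, and none of the 9 members was called (limma, 1.80% of all genes called). No member had an unadjusted p under 0.05. The largest differences were those of NUP88 (+0.41, SE 0.24, adjusted p = 0.494) and NUP98 (+0.33, SE 0.19, adjusted p = 0.460). For GLE1 the difference was -0.15 (adjusted p = 0.737). Without the 2 doubtful HCT116 libraries it was +0.02. NUP88 was then at +0.54 (limma, adjusted p = 0.217) and NUP98 at +0.47 (adjusted p = 0.133), and no member was called.

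Unedited HAP1 (4 WT and 4 EV libraries) and unedited HCT116 differed in most genes, so that 68.0% of all genes were called, and 5 of the 9 members were. NUP214 was higher in HAP1 by 0.80 on the log2 scale (SE 0.12, adjusted p = 3.58e-06). Its HAP1 libraries ran from 15.2 over a median of 17.0 to 25.0 FPKM and those of HCT116 from 6.5 over 10.6 to 13.2 FPKM, without overlap. NUP153 was higher by 0.52 (SE 0.098, adjusted p = 7.33e-05), with 33.3, 40.8 and 46.8 FPKM as lowest, median and highest value in HAP1 and 19.7, 29.4 and 34.8 FPKM in HCT116. Both calls held in all 27 alternatives with the adjusted p threshold.

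RAE1 was higher in HAP1 by 0.32 (adjusted p = 0.00582) and GLE1 by 0.30 (adjusted p = 0.00815). TPR was lower in HAP1 by 0.28 (SE 0.094, adjusted p = 0.0123), with 20.5, 25.1 and 29.5 FPKM as lowest, median and highest value against 24, 30.2 and 38.1 FPKM in HCT116. These 3 pairs of ranges overlapped, and each call depended on the scaling or on the choice of controls. RAE1 was not called with HAP1 WT alone (adjusted p = 0.0659), GLE1 not with libraries scaled by median ratios (0.0544) and TPR not with FPKM rescaled to TPM, the same total in every library (0.0873). NUP88 (+0.21), RANBP2 (-0.05), NUP98 (+0.02) and NUP50 (+0.08) were not called. The median of the 9 was +0.21, beside +0.10 over all genes, and scaling by median ratios moved these medians to +0.10 and 0.00. Of all called genes 5353 were higher and 3854 lower in HAP1 as deposited, 6174 and 3647 after rescaling to TPM, and 4494 and 4552 by median ratios. Under median ratios the estimates of NUP98 (-0.09) and NUP50 (-0.03) changed sign, after rescaling to TPM that of RANBP2 did (+0.02), and without the library labelled EV2 rep3 NUP98 was at 0.00. Of 9 tested partners of the cytoplasmic face 5 were called higher and 1 lower in HAP1. The lower one was DDX19B, the helicase that GLE1 activates, at -3.81 (adjusted p = 8.44e-19), and its close copy DDX19A was at +0.20 (adjusted p = 0.0839), so that the split of reads between them is uncertain.

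**Figure D4:**
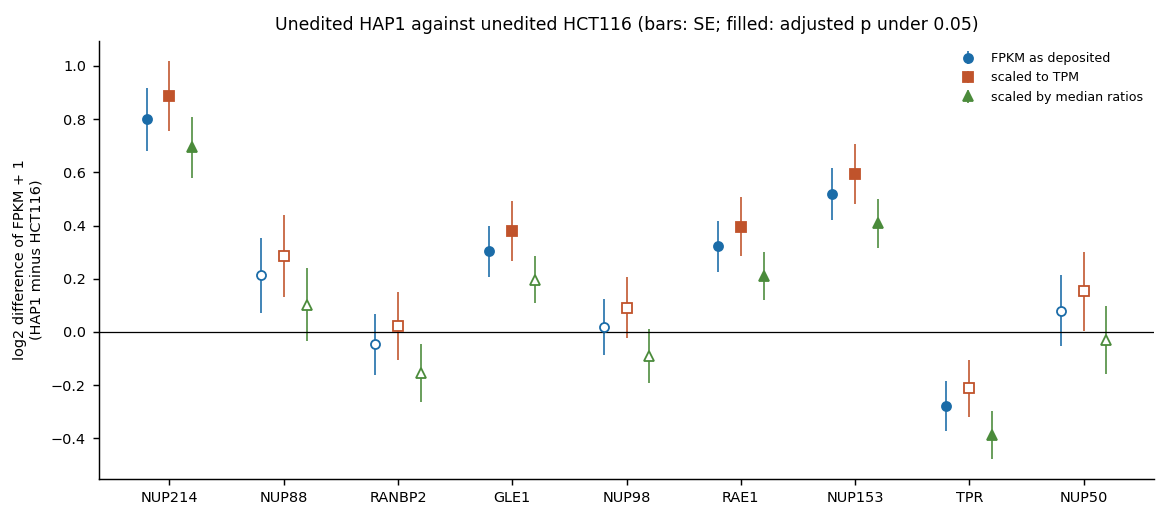
Log2 difference of FPKM + 1 between unedited HAP1 (8 libraries) and unedited HCT116 (11 libraries) for each mRNA, with SE bars, under 3 scalings. Filled points have an adjusted p under 0.05. NUP214, NUP153 and RAE1 are higher in HAP1 under all 3 scalings, GLE1 is called under FPKM and TPM, TPR under FPKM and median ratios, and NUP98, NUP50 and RANBP2 are called under none.

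Within a HAP1 line, libraries differed in ASNS by a ratio of 3.2 (EV) to 13.4 (C4), and replicate 2 had the highest value in 7 of 8 lines. For each member the deviation of a library from the mean of its line was set against the same deviation of ASNS over the 32 libraries, 9 relations in all. All 9 members were lower where ASNS was higher. The share of all tested genes with such a relation is not given here, so the relation is not shown to be particular to these mRNAs. The permutations shuffle libraries within each line independently, while replicate numbers are shared between lines, so these p-values are too small by an amount that was not tested, and the coefficients are best read as a description. NUP153 was closest to ASNS, with Pearson's r of -0.872 and Spearman's rho of -0.842 (permutation p adjusted over 9 = 3e-05 for each, from an unadjusted p of 1e-05, the smallest that 100000 permutations within lines can give). RANBP2 followed with r = -0.858 and rho = -0.816, then NUP50 with -0.828 and -0.840. NUP98 gave r = -0.770 and rho = -0.687, RAE1 -0.769 and -0.687, GLE1 -0.721 and -0.729, NUP88 -0.691 and -0.567 and NUP214 -0.653 and -0.658. TPR gave the weakest relation, with r = -0.602 and rho = -0.557 (permutation p adjusted over 9 of 0.00231 and 0.00447). Leaving out the 2 libraries farthest from the median of ASNS left r between -0.837 (RANBP2) and -0.477 (TPR).

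Part of this relation came with replicate 2. Over the 24 libraries of the other replicates r was -0.859 for NUP50, -0.791 for NUP153 and -0.736 for RANBP2, but -0.271 for NUP88 and -0.454 for RAE1. Within single lines r was negative in 8 of 8 lines for 7 members, in 7 of 8 for RAE1 and in 6 of 8 for TPR. In C4, replicate 2 had 434 FPKM of ASNS and the lowest level of that line for NUP88, RANBP2, GLE1, NUP98, RAE1, NUP153, TPR and NUP50. With ASNS as a covariate in the comparison of the 6 clones with WT, 2 members were called, GLE1 (adjusted p = 0.000723) and NUP153 (adjusted p = 0.00568), while the share of all genes called was 14.7% in place of 6.60%.

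The members also varied with one another. Over the same deviations, r was positive for all 36 pairs of members, with a median of 0.698 (0.347 to 0.923), while the median r of a member with any other tested gene was -0.128. All of these points share library and depth, so the values only describe the 32 libraries. Among 13179 other genes the closest to NUP153 were HEATR1 (r = 0.949) and DDX46 (0.948), and the closest to RANBP2 were LARP4 (0.949) and BRCC3 (0.940). NUP50 was closest to NFX1 (0.948) and DDX52 (0.940), NUP88 to UBTF (0.927) and LMNB1 (0.920), NUP98 to CHORDC1 (0.927) and GAR1 (0.923), and RAE1 to EEF1E1 (0.927) and TSR2 (0.920). NUP214 was closest to NDOR1 (0.887) and FAM91A1 (0.868). TPR (CKAP2, 0.789, and PRPF4B, 0.773) and GLE1 (RTCB, 0.776, and VBP1, 0.769) had less close neighbours.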

How the data were processed

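Bulk RNA was measured in 47 libraries (RNeasy extraction, Illumina TruSeq libraries, paired reads). The authors checked reads with FastQC, aligned them with STAR, estimated expression with RSEM on GRCh38 and deposited 1 FPKM table of 57507 genes. Versions, strand setting and fragment totals are not given in the sources used here, and FPKM carries no scaling between libraries, so a shift in a few abundant genes moves all others. Relative depth was read from the FPKM of 1 fragment in genes under 0.15 FPKM. limma 3.58.1 in R 4.3.3 (lmFit, eBayes with trend) was run on log2(FPKM + 1), which understates changes of low genes, for genes with a mean of at least 1 FPKM, with Benjamini-Hochberg adjustment over all tested genes. The script was tested on simulated data. Each clone was fitted with WT (8 libraries), the mean of the clones in a fit of 32, HCT116 in a fit of 15 and the interaction in a fit of 47. The fits share the WT libraries. Exact permutation tests covered single genes. Permutations for ASNS (100000) were made within lines. Scaling by median ratios used the median over genes of the ratio to the geometric mean.

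The members and lists were chosen with earlier results of these data known. All 9 members were tested in every comparison, but the text does not print every estimate. It also names NUP58 as the check of the labels, list genes called in the mean of the 6 clones and the 2 genes closest to each member. Medians of genes within 2 Mb or 10 Mb are given for some members only. KRT8, KRT18, CDX2, EPCAM, TAL1, DDX19B and DDX19A were named after their values were seen. Positions came from GENCODE 44, which matched 98.1% of gene IDs, and promoters from RefSeq (250 bases before the start). Groups came from the labels, and the 2 HCT116 controls with conflicting labels were used only as unedited. Same-numbered libraries deviated together in all 4 pairs for C1 (lowest r 0.149), C2 (0.249), C3 (0.19), C4 (0.328), EV (0.262) and the mean of the clones (0.356), so the numbers were taken as pairing these lines with WT. No library was left out or imputed unless stated. Python 3.11.15, numpy 2.4.6, pandas 2.3.3, scipy 1.17.1 and matplotlib 3.10.9 were used.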

Additional observations from a re-analysis of the deposited data

Results flagged for a closer look

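In 4 of 90 groups of 4 to 10 libraries, 1 library lay far from the others by Dixon's test at the 95% level, which by chance flags about 1 group in 20. NUP88 in the library labelled C1 rep2 of HAP1 was at 43.0 FPKM, with the other 3 at 66.3 to 68.5 FPKM. RANBP2 in the same library was at 15 FPKM, against 23.1 to 23.8 FPKM. NUP50 in C3 rep2 was at 27.6 FPKM, against 47.8 to 51.3 FPKM. In C1 and C3, replicate 2 also had the highest ASNS level of its line (451 and 154 FPKM), and the part of that state in these values was not tested. GLE1 in the library labelled Clone rep3 of HCT116 was at 26.2 FPKM, against 15.9 to 16.5 FPKM in the other 3 libraries, and NUP58 there was at 44.7 FPKM, against 23.3 to 25.3 FPKM.

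The 6 HAP1 clones differed from each other in NUP153 (limma F test, adjusted p = 0.00039), with a mean of 20.7 FPKM in C6 and of 37.4 to 40.2 FPKM in C1 to C5. They also differed in GLE1 (adjusted p = 0.0342), with means from 18.5 FPKM in C5 to 23.9 FPKM in C6.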

How the results depend on the processing

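NUP153 in C6 and NUP214 and NUP153 in unedited HAP1 against HCT116 kept their call under every alternative run except the rule that asks for an unadjusted p under 0.01 and a fold over 2. That rule called 0 members in the mean of the clones, in the single clones and in the unedited cells. No call changed direction. In the mean of the clones, 1 member was called as reported, 2 with the replicate block, 2 with ASNS as a covariate, 0 against EV, 0 leaving out C5, and 0 to 1 leaving out single libraries. Over all genes that comparison called 870, against 1659 with the block, 1942 with ASNS, 92 with the fold rule and 492 without WT rep4. Over the 6 single clones 2 calls became 4 in 1 fit of all 32 libraries and 1 to 2 leaving out single libraries. Among clones 2 calls became 1 by median ratios, 1 leaving out C3, 1 leaving out C5, 0 leaving out C6 and 1 to 2 leaving out single libraries, and over all genes 1830 became 629 without C6. In HCT116 the median of the members was 0.19 against the 2 WT controls alone and -0.10 as reported. Leaving out the libraries labelled Clone rep3 and EV2 rep3 moved calls over all genes from 0 to 990. Where the cause of a change is not given by fewer libraries, it was not tested.

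Replicate numbers did not pair C5, C6 or the HCT116 clone with their controls, since over 0.1 were 2, 2 and 1 of 4 correlations. Each library correlated best with its own number in 2, 2 and 1 of 4 cases. That count was also 2 of 4 in C2, which was taken as paired because all 4 of its correlations were over 0.1. With the replicate block in C5, NUP50 was called (adjusted p = 0.0386). The block changed no other call beyond those of NUP50 in C5 and NUP153 in the mean of the clones. Over all genes the block moved calls from 2747 to 4218 over the 6 single clones and from 1830 to 2998 among clones. FPKM gives no fragment totals, so no counting error could be attached to a value.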
